A study of Homo sapiens with 6 samples.

Results

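The genes described here are 35 genes of glycolysis and of the hypoxia response, out of 20356 genes in the series table. They were chosen by symbol, and all 35 symbols were found. They comprise 17 glycolytic enzymes, 4 regulatory enzymes (PFKFB2, PFKFB3, PFKFB4 and PDK1), 10 targets of the hypoxia-inducible factors (HIF) that are not enzymes of sugar metabolism, and 4 genes of oxygen sensing (HIF1A, EPAS1, EGLN1 and EGLN3). H1975 is an established human cell line from a lung adenocarcinoma with mutant EGFR, and H1975 OR is its osimertinib-resistant form, which was cultured with 1 µM osimertinib, an inhibitor of mutant EGFR. Parental H1975 cells were grown in the same serum-containing medium under normal conditions, without a stated drug. Each group had 3 RNA-seq libraries, described by the submitters as biological replicates. H1975 OR is the only resistant line, and drug exposure and resistance cannot be told apart, because every resistant library also had the drug. The labels give no oxygen tension and no cell density.

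Glycolysis splits glucose into pyruvate in the cytosol, and lactate dehydrogenase turns pyruvate into lactate. Cancer cells often run it at a high rate even in the presence of oxygen, and EGFR signalling is known to promote it in lung adenocarcinoma cells. HIF1A and EPAS1 encode the oxygen-regulated subunits HIF-1α and HIF-2α. The EGLN enzymes hydroxylate these subunits when oxygen is present and so mark them for destruction, which means that HIF activity is set largely at the protein level. HIF-1 is known for inducing glycolytic genes, and both factors induce genes of blood vessel growth, pH control and matrix formation. None of these proteins or metabolites was measured here. All values are mRNA levels.

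The estimated mapped sequence was 9.72 to 11.5 gigabases in the H1975 OR libraries and 10.8 to 14.7 gigabases in the H1975 libraries, and 11410 to 11555 genes reached 1 FPKM in a library. Transcript levels are given in FPKM, a fragment number divided by the length of the transcript and the mapped total, which allows levels of different genes to be compared per length. Of the epithelial markers, NKX2-1, the lung lineage factor, was listed at 0 in all H1975 OR libraries and was at 23.6 to 28.7 FPKM in the H1975 libraries, and EPCAM averaged 1.02 FPKM in H1975 OR and 211 FPKM in H1975. KRT19 averaged 4.58 FPKM in H1975 OR and 574 FPKM in H1975, CDH1 0.0248 FPKM in H1975 OR and 68.6 FPKM in H1975, and KRT7 289 FPKM in H1975 OR and 1451 FPKM in H1975. KRT8 averaged 384 FPKM in H1975 OR and 508 FPKM in H1975, and KRT18 averaged 274 FPKM in H1975 OR and 431 FPKM in H1975. The 9 epithelial markers summed to 915 to 992 FPKM in H1975 OR and to 2979 to 3491 FPKM in H1975. The 4 leukocyte markers summed to 69.4 to 79.3 FPKM in H1975 OR and to 23.2 to 26.7 FPKM in H1975, of which CD14 and CD68 made up nearly all, with CD3E listed at 0 and PTPRC below 0.05 FPKM in every library. The 5 fibroblast markers summed to 17.5 to 21.3 FPKM in H1975 OR and to 2.24 to 2.66 FPKM in H1975, with DCN listed at 0 in every library. COL1A1 averaged 15.8 FPKM in H1975 OR and 2.45 FPKM in H1975, and PDGFRB 3.94 FPKM in H1975 OR and 0.0444 FPKM in H1975. COL3A1 and LUM were low, with means of 0.285 and 0.0217 FPKM in H1975 OR. The summed level of the 2 endothelial markers measured, CDH5 and VWF, was at most 1.25 FPKM. The part of these markers in the results below was not tested, and in bulk RNA fewer cells of a type and less RNA per cell cannot be told apart.

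Changes between the groups were widespread. Of 12107 genes that averaged 1 FPKM or more in at least 1 of the groups, 78.0% passed an FDR of 0.05 in limma, 39.9% as higher and 38.1% as lower in H1975 OR. Fold changes are H1975 OR minus H1975 on the log2(FPKM + 1) scale. All 35 members reached the level for testing, 34 of them in both groups and CA9 through its H1975 OR mean alone. Of the members, 9 were higher, 21 were lower and 5 did not pass. Their median fold change was -0.31, against 0.01 over all tested genes, and their median absolute change was 0.62, against 0.45. The groups did not overlap in 30 of the 35 members, against 79.8% of all tested genes, with 9 above (40.8% of all tested genes) and 21 below (39.0%). The share of members past the threshold was thus near the background, while more of them fell than rose. By at least 1 on the log2 scale, 3 members rose (ADM, CA9 and VEGFA) and 3 fell (PFKFB2, PFKFB4 and PDK1), where 9.95% of all tested genes rose and 9.39% fell by as much.

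The role groups differed in direction. Of the 17 glycolytic enzymes, 13 fell and 3 rose, with a median fold change of -0.54, and HK2 did not pass. By at least 0.5, 9 enzymes fell and 3 rose, where 21.8% of all tested genes fell and 23.3% rose by as much. All 4 regulatory enzymes fell, with a median of -1.32. Of the 10 non-metabolic HIF targets, 4 were higher, 3 were lower and 3 did not pass, shares near those of all tested genes (39.9% higher and 38.1% lower). Their fold changes ranged from -0.97 to 2.27 around a median of -0.15. This median was -0.03 without H1975 OR replicate 1, -0.05 without H1975 replicate 3 and -0.09 with scaling without mitochondrially encoded genes. It was -0.19 without H1975 OR replicate 3 and -0.18 with a pseudocount of 0.1 FPKM. With a mean of at least 1 FPKM required in both groups, which leaves out CA9, it was -0.20. The median of the glycolytic enzymes was -0.46 without H1975 OR replicate 1 and -0.61 without H1975 OR replicate 2. Of the 4 oxygen-sensing genes, EPAS1 and EGLN1 rose, EGLN3 fell and HIF1A did not pass. Among the 586 genes averaging 100 FPKM or more over all libraries, a level chosen after the values were seen and one that 11 of the enzymes exceed, 292 fell and 158 rose, with a median of -0.16.

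**Figure D1:**
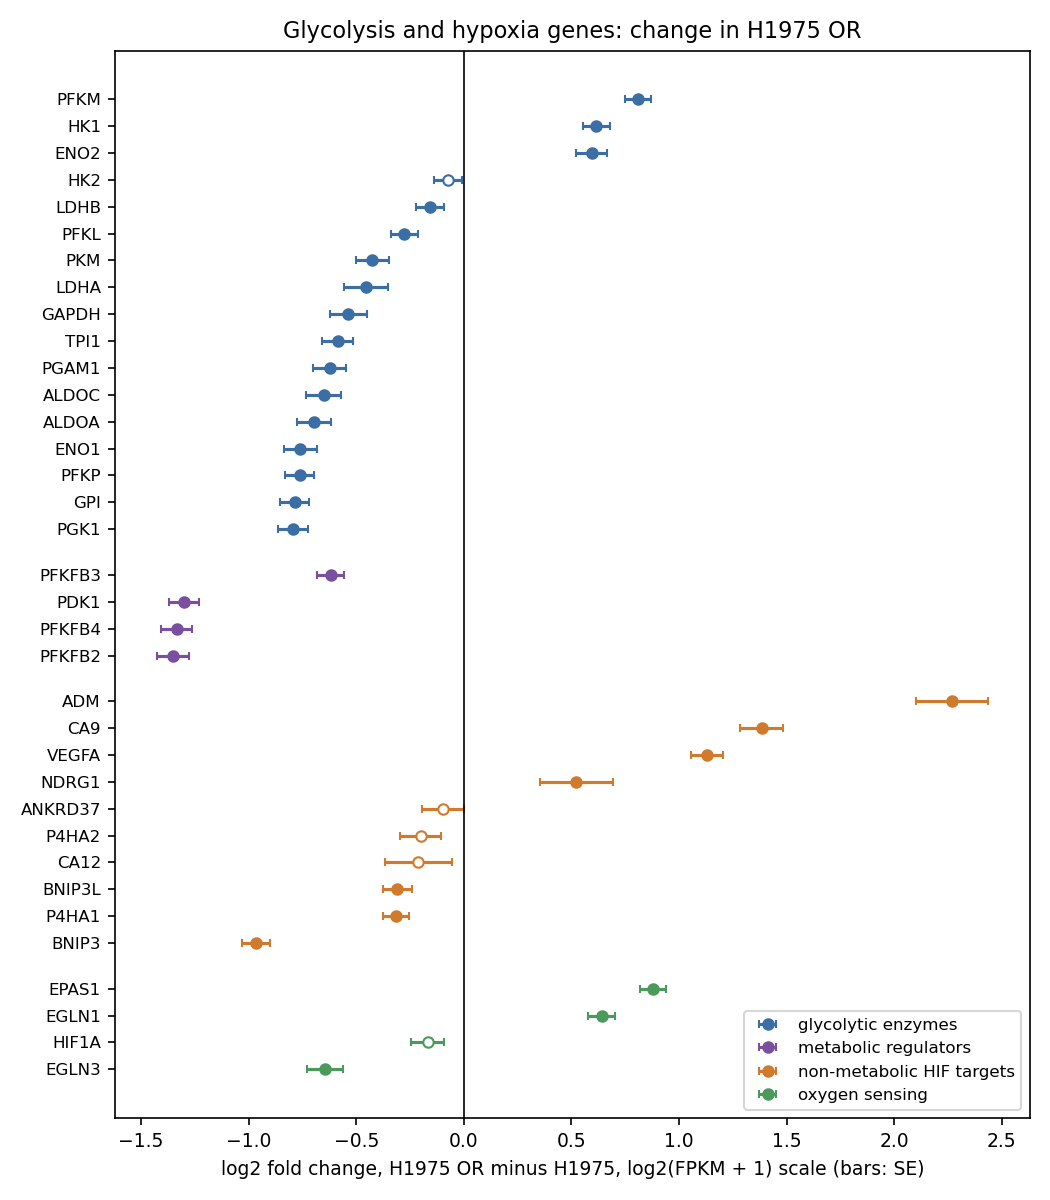
Log2 fold change (H1975 OR minus H1975, log2(FPKM + 1) scale) of all 35 members, grouped by role, with bars for the SE and filled points for an adjusted p under 0.05. The enzymes lie mostly between -0.80 and -0.16, the regulatory enzymes at or below -0.62, and the HIF targets from -0.97 (BNIP3) to 2.27 (ADM).

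Sequence letters of the HIF binding core were looked up in promoter windows from 250 bases before to 50 bases after the gene start (RefSeq, GRCh38.p14), of which 31 of the 35 members had one. The core was searched as ACGTG and as GCGTG on both strands, where the palindrome CACGTG matches ACGTG on each strand. ACGTG was found in 13 of 31 member windows (41.9%), against 26.8% of the windows of 9070 tested genes and 21.4% of all 34794 windows. It was found in 3 of the 7 windows of members that rose and in 8 of the 19 windows of members that fell. GCGTG was found in 15 of 31 member windows (48.4%), against 51.4% of the windows of tested genes. Where a gene had several windows, the first listed was used. The 6 windows below are shown because they hold ACGTG in genes that moved in opposite directions: PGK1, LDHA and BNIP3 fell, and CA9, ENO2 and EGLN1 rose. Capitals mark ACGTG or its reverse complement CACGT. Each is given 5′ to 3′ along the gene's own strand.
PGK1 (chrX:78103998-78104297, plus strand): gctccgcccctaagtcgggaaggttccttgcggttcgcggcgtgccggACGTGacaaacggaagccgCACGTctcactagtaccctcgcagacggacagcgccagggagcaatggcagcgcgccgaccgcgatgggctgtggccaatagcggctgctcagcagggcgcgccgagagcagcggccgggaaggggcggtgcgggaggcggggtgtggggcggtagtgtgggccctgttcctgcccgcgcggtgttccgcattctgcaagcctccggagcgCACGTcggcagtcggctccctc
LDHA (chr11:18394313-18394612, plus strand): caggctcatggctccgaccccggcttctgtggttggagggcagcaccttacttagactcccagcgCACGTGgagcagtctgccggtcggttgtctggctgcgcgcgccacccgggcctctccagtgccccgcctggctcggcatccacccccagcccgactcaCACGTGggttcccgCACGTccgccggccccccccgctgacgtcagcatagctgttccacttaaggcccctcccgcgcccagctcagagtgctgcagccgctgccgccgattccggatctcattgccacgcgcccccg
BNIP3 (chr10:131981874-131982173, minus strand): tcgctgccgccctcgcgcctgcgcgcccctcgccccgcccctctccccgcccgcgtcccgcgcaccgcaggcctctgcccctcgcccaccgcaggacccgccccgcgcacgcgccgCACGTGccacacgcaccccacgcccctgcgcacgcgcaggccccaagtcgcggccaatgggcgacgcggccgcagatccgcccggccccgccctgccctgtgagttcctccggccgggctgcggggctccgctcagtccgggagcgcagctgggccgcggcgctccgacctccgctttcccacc
CA9 (chr9:35673678-35673977, plus strand): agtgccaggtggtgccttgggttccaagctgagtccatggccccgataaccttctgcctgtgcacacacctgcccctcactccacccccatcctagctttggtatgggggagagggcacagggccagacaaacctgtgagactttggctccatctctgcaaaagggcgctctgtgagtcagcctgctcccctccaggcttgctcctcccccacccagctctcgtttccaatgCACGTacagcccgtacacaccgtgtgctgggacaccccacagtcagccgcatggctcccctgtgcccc
ENO2 (chr12:6914330-6914629, plus strand): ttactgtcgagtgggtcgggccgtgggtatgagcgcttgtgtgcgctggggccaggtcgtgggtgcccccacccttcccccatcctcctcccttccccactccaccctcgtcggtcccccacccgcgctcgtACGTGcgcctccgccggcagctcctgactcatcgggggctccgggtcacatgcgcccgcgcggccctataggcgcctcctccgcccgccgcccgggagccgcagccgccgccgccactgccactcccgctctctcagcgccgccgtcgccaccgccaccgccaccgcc
EGLN1 (chr1:231422238-231422537, minus strand): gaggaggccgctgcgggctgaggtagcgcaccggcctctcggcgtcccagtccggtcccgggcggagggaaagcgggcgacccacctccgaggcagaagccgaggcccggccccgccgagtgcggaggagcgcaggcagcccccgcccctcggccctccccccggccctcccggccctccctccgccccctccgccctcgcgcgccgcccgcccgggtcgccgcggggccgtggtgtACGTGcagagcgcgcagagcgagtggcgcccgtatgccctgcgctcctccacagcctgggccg
A match describes letters in these windows only, and sites further from the start were not searched.

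At the entry of glycolysis the hexokinase and phosphofructokinase genes moved in different directions. HK1 (10:71029740-71161638; all gene coordinates are GRCh37), the hexokinase found in most tissues, was at 85.9, 97.7 and 90.02 FPKM in the H1975 OR libraries and at 59.1, 59.4 and 58.8 FPKM in the H1975 libraries. The 3 H1975 OR values lay above all H1975 values, and HK1 rose by 0.62 ± 0.0638 (SE) on the log2 scale (adjusted p = 1.8e-06). HK2, the inducible isozyme that is a known HIF-1 target, was at 21.02, 20.7 and 21.1 FPKM in H1975 OR and at 22.6, 23.4 and 20.3 FPKM in H1975. The HK2 groups overlapped, with a fold change of -0.07 ± 0.0651 (adjusted p = 0.33). HK2 therefore made up 18.7% ± 1.11 of the HK1 and HK2 sum in H1975 OR, against 27.2% ± 1.39 in H1975 (SD, n = 3 each), without overlap between libraries. Other hexokinase genes were not counted in this sum, such as HKDC1, at 10.6 FPKM in H1975 OR and 8.30 FPKM in H1975. The sum of HK1 and HK2 was 112 ± 5.86 FPKM in H1975 OR and 81.2 ± 1.87 FPKM in H1975.

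GPI (19:34850385-34893061), which converts glucose 6-phosphate to fructose 6-phosphate, was at 72.3, 82.5 and 77.2 FPKM in H1975 OR and at 140.4, 129 and 133 FPKM in H1975. It fell by 0.79 ± 0.0676 on the log2 scale (adjusted p = 2.9e-07), one of the largest declines among the enzymes. Phosphofructokinase 1, the step that commits sugar to glycolysis, has a muscle, a liver and a platelet gene. PFKM (12:48498922-48540187), the muscle type, was at 49.9, 52.5 and 49.9 FPKM in H1975 OR and at 27.9, 29.9 and 27.8 FPKM in H1975, and rose by 0.81 ± 0.0600 (adjusted p = 7.3e-08). PFKP (10:3108525-3179904), the platelet type, was at 75.0, 87.8 and 79.6 FPKM in H1975 OR and at 139, 138 and 136 FPKM in H1975, and fell by 0.76 ± 0.0678 (adjusted p = 4.2e-07). In both genes the groups were fully apart, in opposite directions. PFKL, the liver type, was at 34.6, 38.9 and 37.9 FPKM in H1975 OR and at 45.9, 44.02 and 45.6 FPKM in H1975, a smaller decline of 0.28 ± 0.0630 on the log2 scale (adjusted p = 0.0014).

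The makeup of phosphofructokinase mRNA changed accordingly. PFKP was 47.8% ± 1.01 of the sum of the 3 genes in H1975 OR and 65.1% ± 0.197 in H1975, and PFKM was 30.1% ± 1.01 in H1975 OR and 13.5% ± 0.543 in H1975 (SD, n = 3 each). The libraries of the groups did not overlap in either share. The share of PFKL was 22.0% ± 0.541 in H1975 OR and 21.4% ± 0.540 in H1975, and overlapped. The summed level of the 3 genes was 169 ± 9.94 FPKM in H1975 OR and 211 ± 1.71 FPKM in H1975. PFKM overlaps SENP1 on the other strand, which was at 9.94 FPKM in H1975 OR and 6.32 FPKM in H1975. Because the use of strand is not stated, reads of such overlapping genes cannot be told apart.

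**Figure D2:**
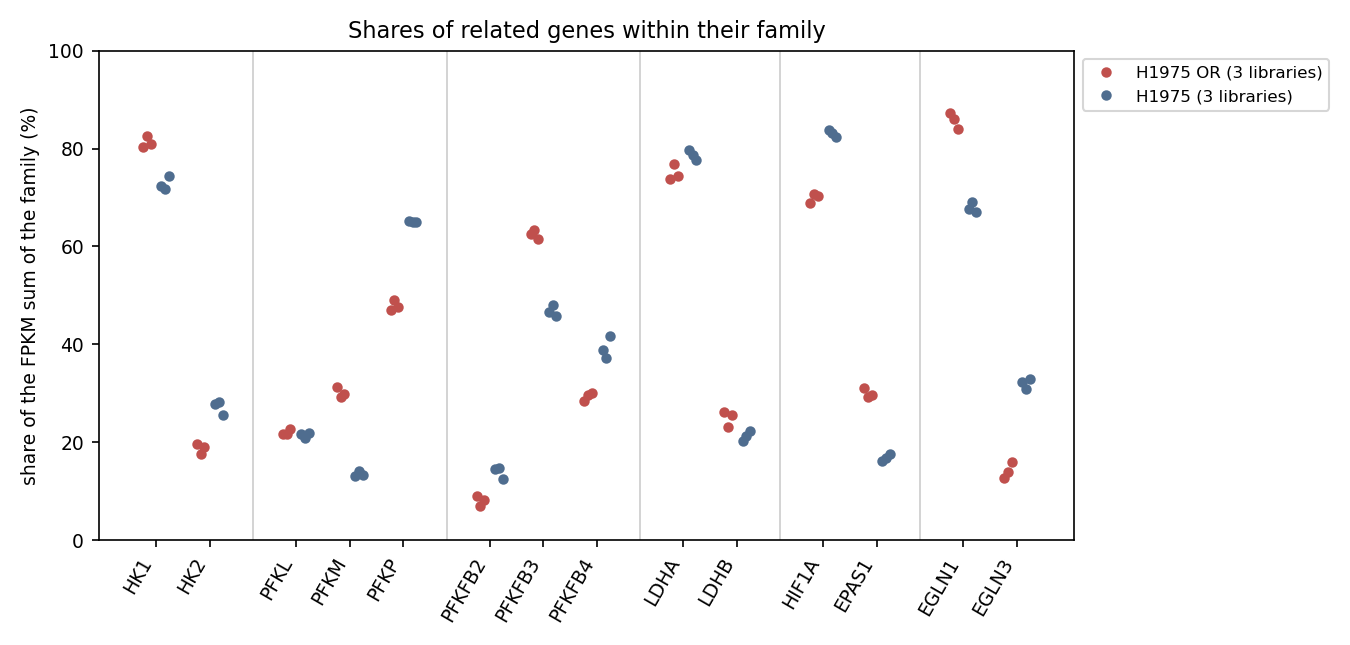
Share of each gene in the FPKM sum of the genes shown from its family, in percent. There is 1 point per library, with H1975 OR on the left of each pair and H1975 on the right. PFKM, HK1, PFKFB3, LDHB, EPAS1 and EGLN1 take a larger share in every H1975 OR library than in any H1975 library, and PFKL overlaps.

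Of the 9 members from aldolase to pyruvate kinase, 8 fell and ENO2 rose. ALDOA (16:30064411-30081778), the main aldolase here, which cuts the sugar into triose phosphates, was at 629.6, 761 and 671 FPKM in H1975 OR and at 1152, 1097 and 1082 FPKM in H1975. It fell by 0.70 ± 0.0785 (adjusted p = 3.9e-06). ALDOC, a second aldolase gene, was at 12.7, 13.1 and 16.1 FPKM in H1975 OR and at 23.2, 22.0 and 22.1 FPKM in H1975, and fell by 0.65 ± 0.0812 (adjusted p = 1.0e-05). Both genes were lower in every H1975 OR library than in any H1975 library. ALDOA kept its share of the pair at 98.0% in each group. TPI1, which interconverts the 2 triose phosphates, was at 396, 448 and 413 FPKM in H1975 OR and at 665, 633 and 590.3 FPKM in H1975, and fell by 0.59 ± 0.0728 (adjusted p = 9.4e-06).

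GAPDH, the triose phosphate dehydrogenase that is often used as a reference gene, had the highest mean level of the enzymes in each group. It was at 1238, 1527 and 1373 FPKM in H1975 OR and at 2141, 1924 and 1928 FPKM in H1975. The values were apart, and GAPDH fell by 0.54 ± 0.0862 (adjusted p = 9.2e-05), and its mean FPKM fell by 31.0%. PGK1 (X:77320685-77384793), which makes the first ATP of the pathway, was at 162, 183 and 162 FPKM in H1975 OR and at 305, 279 and 298 FPKM in H1975. It fell by 0.80 ± 0.0699 on the log2 scale (adjusted p = 3.7e-07), close to the fall of GPI. PGK1 is a long-known HIF-1 target, and its window above holds ACGTG at 3 places and GCGTG at 1. PGAM1, a phosphoglycerate mutase, was at 242, 271 and 240.4 FPKM in H1975 OR and at 408, 401 and 353 FPKM in H1975, and fell by 0.62 ± 0.0763 (adjusted p = 8.4e-06).

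The enolase genes moved apart. ENO1 (1:8921061-8939308), the enolase of most tissues, was at 1048, 1220.5 and 1054 FPKM in H1975 OR and at 1882, 1939 and 1796 FPKM in H1975, and fell by 0.76 ± 0.0776 (adjusted p = 1.5e-06). ENO2 (12:7022909-7032861), known as the neuronal enolase, was at 16.7, 19.0 and 20.04 FPKM in H1975 OR and at 12.1, 11.5 and 12.3 FPKM in H1975, and rose by 0.59 ± 0.0720 (adjusted p = 7.6e-06). ENO2 remained a small part of the ENO1 and ENO2 sum, with 1.66% ± 0.184 in H1975 OR and 0.634% ± 0.0454 in H1975 (SD, n = 3 each). LRRC23, which overlaps ENO2 on the same strand, was at 4.54 FPKM in H1975 OR and at 2.68 FPKM in H1975. PKM, the pyruvate kinase gene, was at 669, 771 and 685 FPKM in H1975 OR and at 995, 947 and 907 FPKM in H1975, a fall of 0.42 ± 0.0747 (adjusted p = 0.00020). Values per gene do not separate the PKM1 and PKM2 splice forms.

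Lactate dehydrogenase consists of A and B subunits, of which the A subunit favours lactate formation. LDHA (11:18415935-18429972) was at 943, 1213 and 969 FPKM in H1975 OR and at 1534, 1444 and 1291 FPKM in H1975, and fell by 0.46 ± 0.102 (adjusted p = 0.0015). LDHB was at 334, 365 and 333 FPKM in H1975 OR and at 390.4, 389 and 370.4 FPKM in H1975. The groups lay close together without overlap, and the LDHB change of -0.16 ± 0.0652 was close to the threshold (adjusted p = 0.044). The LDHB call ended without H1975 OR replicate 1 (adjusted p = 0.11), without H1975 OR replicate 3 (0.15), without H1975 replicate 1 (0.12) and without H1975 replicate 2 (0.11). LDHA was 75.0% ± 1.61 of the LDHA and LDHB sum in H1975 OR and 78.7% ± 1.01 in H1975, with no overlap between libraries.

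**Figure D3:**
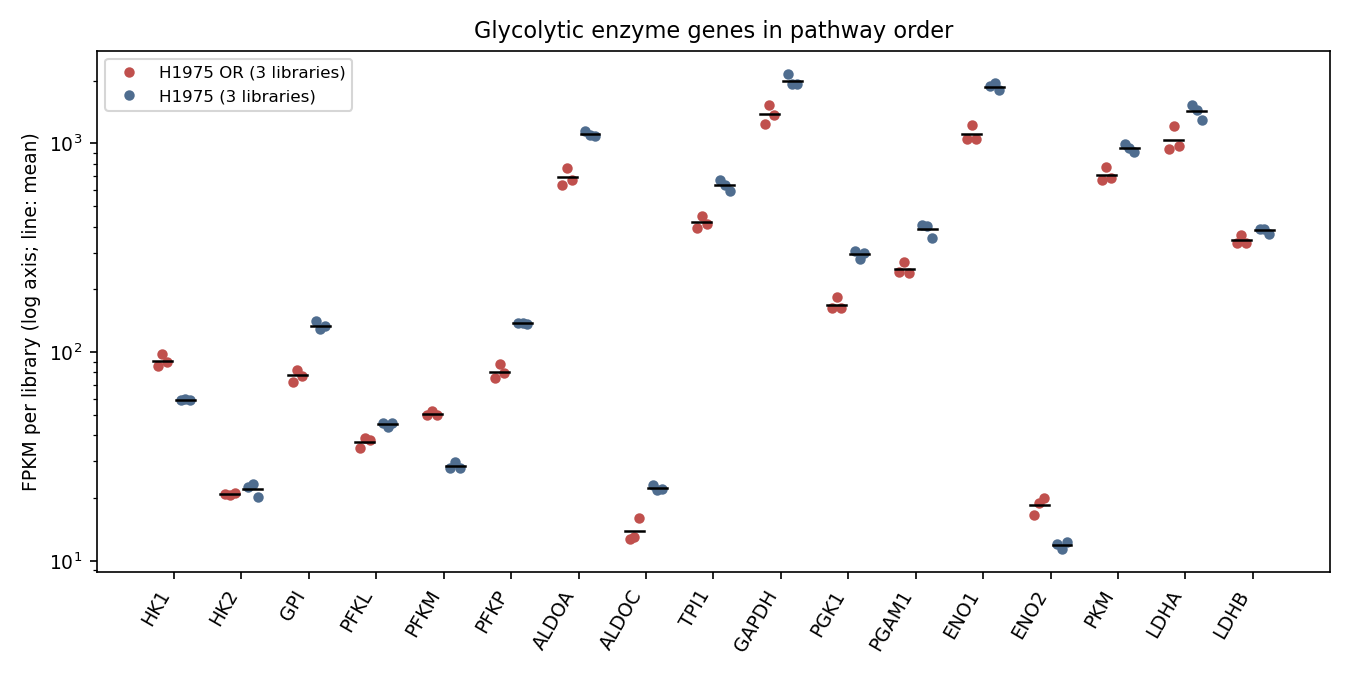
FPKM of the 17 glycolytic enzyme genes in pathway order on a log axis, with 1 point per library and a line for the mean, H1975 OR on the left and H1975 on the right of each gene. The H1975 OR points lie above the H1975 points in HK1, PFKM and ENO2, below them in 13 genes, and among them in HK2.

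Together the 17 enzymes took 1.44%, 1.63% and 1.46% of all TPM (transcript shares scaled to a fixed total per library) in the H1975 OR libraries, against 2.24%, 2.16% and 2.08% in the H1975 libraries. Mitochondrially encoded genes, which share this total, took 11.5% to 13.4% of TPM in H1975 OR and 9.21% to 11.4% in H1975, without overlap. With FPKM scaled without them, the median fold change of the enzymes was -0.46. The order of the enzymes by mean level was nearly the same in both groups, with GAPDH, ENO1 and LDHA as the 3 highest. H1975 OR replicate 2 was the highest of the H1975 OR libraries for 14 of the 17 enzymes, and for 42.2% of all tested genes. The median difference of the enzymes from their H1975 means was -0.67 in H1975 OR replicate 1, -0.39 in replicate 2 and -0.54 in replicate 3 on the log2 scale. Processed pseudogenes, which can take reads from abundant genes, summed to at most 0.599% of their parent's FPKM in every enzyme gene with named copies, so that few reads were assigned to them.

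Of the 4 regulatory enzymes, PFKFB2, PFKFB4 and PDK1 had larger declines than any of the 17 enzymes of the main path. The PFKFB enzymes make and remove fructose 2,6-bisphosphate, the strongest known activator of phosphofructokinase 1. PFKFB2 (1:207222801-207254369) was at 1.51, 1.32 and 1.43 FPKM in H1975 OR and at 5.32, 5.49 and 4.72 FPKM in H1975, and fell by 1.35 ± 0.0753 (adjusted p = 4.9e-09). PFKFB4 (3:48555117-48599448), a known HIF-1 target, was at 4.78, 5.58 and 5.23 FPKM in H1975 OR and at 14.2, 13.9 and 15.9 FPKM in H1975, and fell by 1.34 ± 0.0731 (adjusted p = 4.1e-09). In both genes the highest H1975 OR library was far below the lowest H1975 library. PFKFB3 (10:6186881-6277495), whose product strongly favours synthesis of the activator, was at 10.5, 11.9 and 10.7 FPKM in H1975 OR and at 17.02, 17.8 and 17.4 FPKM in H1975, and fell by 0.62 ± 0.0638 (adjusted p = 1.7e-06).

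The PFKFB sum was thus 17.6 ± 1.03 FPKM in H1975 OR and 37.2 ± 0.761 FPKM in H1975, while the share of PFKFB3 in it was 62.5% ± 0.827 in H1975 OR and 46.8% ± 1.08 in H1975 (SD, n = 3 each). PDK1 (2:173420101-173489823) encodes a kinase that switches off pyruvate dehydrogenase and so keeps pyruvate out of the mitochondrion. It was at 4.04, 3.75 and 4.15 FPKM in H1975 OR and at 11.0, 10.7 and 12.1 FPKM in H1975, and fell by 1.30 ± 0.0678 (adjusted p = 2.6e-09). The groups were wide apart. YOD1, which overlaps PFKFB2 on the other strand, was at 2.97 FPKM in H1975 OR and at 3.94 FPKM in H1975, and AC093818.1, antisense to PDK1, was at 0.742 FPKM in H1975 OR and at 2.10 FPKM in H1975. Of all tested genes, 11.0% to 12.0% had a larger absolute change than PFKFB2, PFKFB4 or PDK1.

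Among the HIF targets outside sugar metabolism, the secreted factors rose. ADM (11:10326227-10328944), the vasodilator peptide adrenomedullin, was at 14.4, 15.3 and 14.5 FPKM in H1975 OR and at 1.85, 1.80 and 3.35 FPKM in H1975. It rose by 2.27 ± 0.168 (adjusted p = 1.2e-05), the largest change of the members on the log2(FPKM + 1) scale, where 3.62% of tested genes changed by more. With a pseudocount of 0.1 FPKM the rise of ADM was 2.66, below that of CA9. VEGFA (6:43737921-43754224), the main growth factor of blood vessels, was at 99.0, 92.7 and 110.3 FPKM in H1975 OR and at 47.4, 43.1 and 45.6 FPKM in H1975, and rose by 1.13 ± 0.0731 (adjusted p = 2.0e-08). Every H1975 OR library lay well above every H1975 library in both genes.

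The carbonic anhydrases of the cell surface, which help to export acid, were unlike each other. CA9 (9:35673853-35681156), a widely used hypoxia marker, was at 1.81, 1.84 and 2.51 FPKM in H1975 OR and at 0.106, 0.101 and 0.297 FPKM in H1975, and rose by 1.38 ± 0.101 (adjusted p = 7.9e-08). The size of the CA9 change depended on the scale, with 3.07 at a pseudocount of 0.1 FPKM, 2.07 on TPM and a ratio of means of 12.3, and the gene reached the level for testing through H1975 OR alone. CA9 remained a low transcript, and ARHGEF39, which overlaps it on the other strand, was at 4.38 FPKM in H1975 OR and at 12.6 FPKM in H1975. CA12 was at 6.85, 9.28 and 11.0 FPKM in H1975 OR and at 11.4, 10.7 and 9.36 FPKM in H1975. Its groups overlapped, with a fold change of -0.21 ± 0.155 (adjusted p = 0.25). The fold change of CA12 was -0.35 without H1975 OR replicate 3 (adjusted p = 0.024) and -0.04 without H1975 OR replicate 1 (adjusted p = 0.68). CA9 was 18.7% ± 2.20 of the CA9 and CA12 sum in H1975 OR and 1.64% ± 1.24 in H1975 (SD, n = 3 each).

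NDRG1, a stress-responsive gene linked to differentiation, was at 65.0, 68.6 and 85.3 FPKM in H1975 OR and at 52.7, 39.98 and 59.8 FPKM in H1975. The groups were separate but the libraries within each varied, and the rise was 0.52 ± 0.170 (adjusted p = 0.028). The NDRG1 call ended without H1975 OR replicate 2 (adjusted p = 0.056), without H1975 OR replicate 3 (0.061) and without H1975 replicate 1 (0.072). It held without H1975 OR replicate 1 (adjusted p = 0.037), without H1975 replicate 2 (0.018) and without H1975 replicate 3 (0.0067). With same-numbered libraries treated as blocks the adjusted p was 0.00031, but whether the libraries were paired is not settled. ANKRD37, a small ankyrin-repeat gene induced by HIF-1, was at 1.19, 1.64 and 1.56 FPKM in H1975 OR and at 1.40, 1.54 and 1.97 FPKM in H1975, with a fold change of -0.10 ± 0.0973 (adjusted p = 0.38). It overlaps the more abundant UFSP2 on the other strand, at 13.4 FPKM in H1975 OR and 9.33 FPKM in H1975.

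The genes of BNIP3 and BNIP3L, mitophagy receptors of the outer mitochondrial membrane, both fell. BNIP3 (10:133781578-133795435) was at 48.6, 52.2 and 52.6 FPKM in H1975 OR and at 101.9, 95.9 and 104.7 FPKM in H1975, a fall of 0.97 ± 0.0631 (adjusted p = 2.2e-08), and its mean FPKM fell by 49.3%. Of the members, BNIP3 had the highest sum of named pseudogene FPKM relative to its own level. This sum equalled 19.1% of BNIP3 in H1975 OR and 20.4% in H1975. Reads shared between BNIP3 and these copies were not measured, so the uncertainty of its level is not known. BNIP3L was at 21.3, 22.5 and 24.6 FPKM in H1975 OR and at 29.8, 27.9 and 27.7 FPKM in H1975, a smaller fall of 0.31 ± 0.0671 (adjusted p = 0.0010). The collagen prolyl 4-hydroxylase subunit gene P4HA1 was at 27.7, 27.7 and 30.0 FPKM in H1975 OR and at 35.8, 35.2 and 35.8 FPKM in H1975, and fell by 0.31 ± 0.0594 (adjusted p = 0.00035). Its relative P4HA2 was at 27.5, 26.5 and 30.9 FPKM in H1975 OR and at 29.9, 30.3 and 38.1 FPKM in H1975. The P4HA2 groups overlapped, with a fold change of -0.20 ± 0.0946 (adjusted p = 0.073). P4HA2 passed without H1975 OR replicate 3 (adjusted p = 0.032) and without H1975 replicate 1 (0.035), whereas without H1975 replicate 3 its change was -0.09 (adjusted p = 0.29). It shares its locus with PDLIM4 and SLC22A4 on the other strand, at 22.3 and 9.08 FPKM in H1975 OR and at 13.97 and 5.02 FPKM in H1975.

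**Figure D4:**
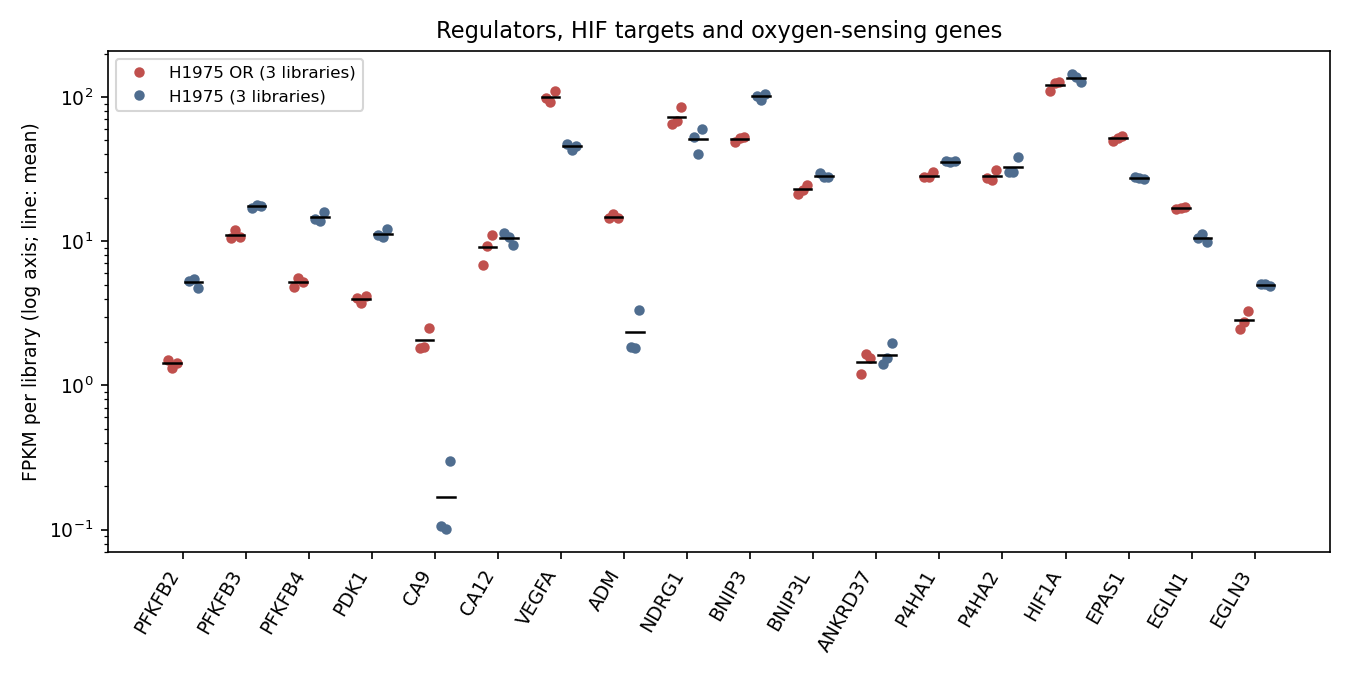
FPKM of the 4 regulatory enzymes, 10 HIF targets and 4 oxygen-sensing genes on a log axis, with 1 point per library and a line for the mean, H1975 OR on the left and H1975 on the right of each gene. ADM, CA9, VEGFA, NDRG1, EPAS1 and EGLN1 have all H1975 OR points above the H1975 points, and CA12, ANKRD37, P4HA2 and HIF1A overlap.

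The 2 genes of the oxygen-regulated HIF subunits differed. EPAS1 (2:46520806-46613836), the gene of HIF-2α, was at 49.6, 51.7 and 53.7 FPKM in H1975 OR and at 28.1, 27.6 and 27.2 FPKM in H1975, and rose by 0.88 ± 0.0587 (adjusted p = 2.7e-08). HIF1A was at 110.2, 125 and 127 FPKM in H1975 OR and at 145, 136 and 126 FPKM in H1975. The HIF1A groups overlapped, with a change of -0.17 ± 0.0757 (adjusted p = 0.059). HIF1A passed without H1975 OR replicate 3 (adjusted p = 0.046), without H1975 replicate 3 (0.029) and with median-of-ratios scaling (0.024). Its change was -0.10 without H1975 OR replicate 1 (adjusted p = 0.23) and -0.09 with scaling without mitochondrially encoded genes (adjusted p = 0.15). EPAS1 accounted for 29.9% ± 0.962 of the HIF1A and EPAS1 sum in H1975 OR and for 16.9% ± 0.751 in H1975, and the sums overlapped at 173 ± 11.4 FPKM in H1975 OR and 164 ± 9.85 FPKM in H1975 (SD, n = 3 each).

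The oxygen sensor genes EGLN1 and EGLN3 also moved apart. EGLN1 (1:231499497-231560790), the main HIF prolyl hydroxylase in normal oxygen, was at 16.7, 16.97 and 17.3 FPKM in H1975 OR and at 10.6, 11.2 and 9.92 FPKM in H1975, and rose by 0.64 ± 0.0621 (adjusted p = 9.4e-07). EGLN3 (14:34393437-34931980), a hydroxylase gene that is itself strongly induced by HIF, was at 2.45, 2.75 and 3.30 FPKM in H1975 OR and at 5.02, 5.02 and 4.88 FPKM in H1975, and fell by 0.65 ± 0.0836 (adjusted p = 1.4e-05). The groups did not overlap in either gene. EGLN3 made up 14.2% ± 1.65 of the EGLN1 and EGLN3 sum in H1975 OR and 32.0% ± 1.01 in H1975 (SD, n = 3 each). EGLN2, another HIF prolyl hydroxylase gene, was not counted in this sum. It was at 6.53 FPKM in H1975 OR and 7.22 FPKM in H1975, and its groups overlapped (adjusted p = 0.39). SPTSSA, which overlaps the annotated EGLN3 locus on the same strand, was at 16.4 FPKM in H1975 OR and at 24.9 FPKM in H1975.

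Set beside their measured mRNA sums, the enzymes and the non-metabolic HIF targets differed. The 17 enzymes averaged 1.51% ± 0.105 of all TPM in H1975 OR and 2.16% ± 0.0786 in H1975, without overlap between libraries (SD, n = 3 each). The 10 HIF targets summed to 772 ± 65.1 TPM in H1975 OR and 701 ± 48.8 TPM in H1975, and overlapped. Abundant members moved in opposite directions within this sum, with VEGFA and NDRG1 higher and BNIP3 lower in H1975 OR. The 4 regulatory enzymes summed to 50.3 ± 0.849 TPM in H1975 OR and 110.2 ± 4.11 TPM in H1975. The median difference of the HIF targets from their H1975 means was -0.25, -0.07 and 0.01 in H1975 OR replicates 1, 2 and 3 on the log2 scale, while that of the enzymes was below -0.38 in each. The difference between the role groups was not tested, since the genes were chosen with their values known.

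The members were also set beside their chromosomal neighbours. The tested genes within 5 Mb of a glycolytic enzyme had a median fold change that ranged from -0.30 to 0.44 between enzymes, and the median of these neighbour medians was 0.07, whereas the enzymes themselves had a median of -0.54. LDHA fell by 0.46 while its 29 neighbours had a median of 0.44, and CA9 rose by 1.38 while its 69 neighbours had a median of -0.52. Some members moved the same way as their surroundings. ADM and VEGFA lie among genes with medians of 0.45 and 0.42, and EGLN1 among genes with a median of 0.38, while PDK1 and PFKFB2 lie among genes with medians of -0.43 and -0.37. These medians depended on the window: within 2 Mb that of PFKFB2 was -0.06, and within 10 Mb that of ADM was 0.25. Copy number was not measured.

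**Figure D5:**
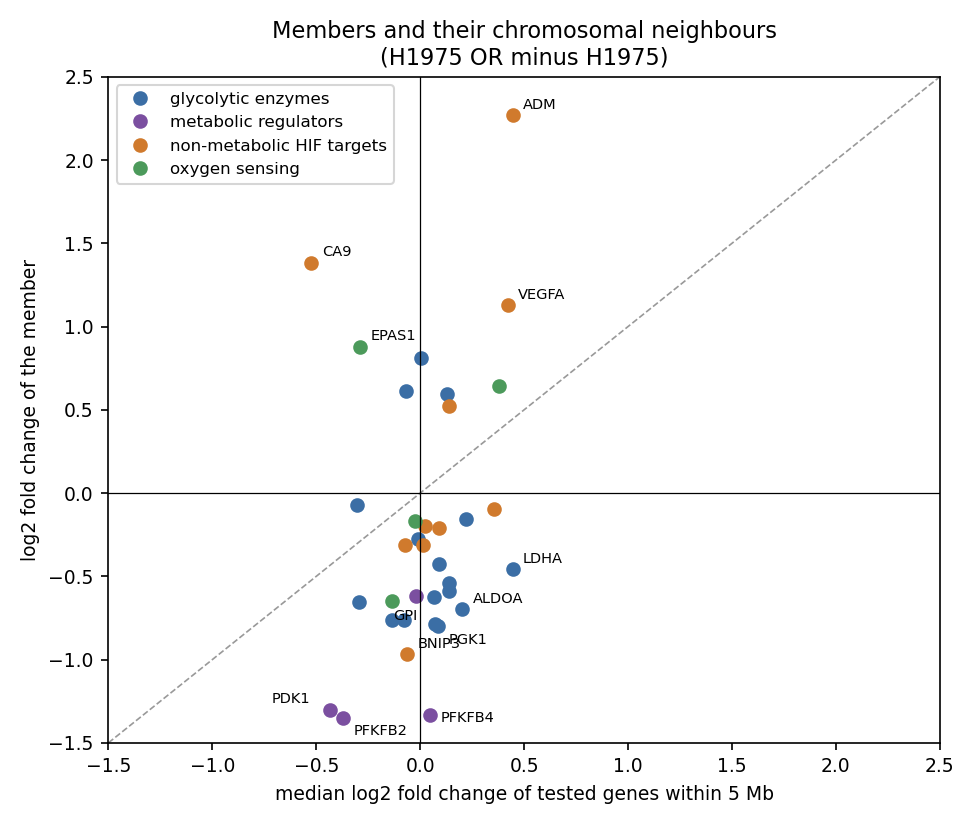
Log2 fold change of each member (H1975 OR minus H1975, vertical axis) against the median log2 fold change of the tested genes within 5 Mb of it (horizontal axis), with a dashed line where both are equal. Most enzymes lie below the dashed line, and CA9, EPAS1 and ADM lie far above it.

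A further 68 genes of glucose transport, pyruvate use and the HIF system were looked at beside the members, of which 58 reached the level for testing, with 24 higher and 19 lower in H1975 OR and a median of 0.07. Over all tested genes 39.9% were higher and 38.1% lower, so these counts, like those of the small sublists that follow, are given as a description only. In transport, 3 of 6 rose and 2 fell. SLC2A1, the glucose transporter GLUT1, fell by 0.64 ± 0.0611, with 42.8 ± 2.16 FPKM in H1975 OR and 67.4 ± 1.52 FPKM in H1975 (adjusted p = 7.8e-07). SLC16A3, the lactate exporter MCT4, fell by 0.58 ± 0.0727, with 80.5 ± 7.17 FPKM in H1975 OR and 120.4 ± 4.68 FPKM in H1975 (adjusted p = 1.1e-05). Both transporters thus moved the same way as most of the glycolytic enzymes. BSG, the partner protein that brings several lactate transporters to the surface, rose by 1.29 ± 0.0718, with 531 ± 35.6 FPKM in H1975 OR and 216 ± 11.5 FPKM in H1975 (adjusted p = 4.8e-09). SLC16A7, the transporter MCT2, was at 4.98, 5.69 and 4.83 FPKM in H1975 OR and was listed at 0 in each H1975 library, so it reached the level for testing through H1975 OR alone.

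Of 11 tested genes of other glycolytic and gluconeogenic enzymes, 4 rose and 2 fell. The muscle enolase gene ENO3 rose by 1.07 ± 0.0849 (adjusted p = 1.4e-07), and PGM1, a phosphoglucomutase, fell by 0.53 ± 0.0608 (adjusted p = 4.4e-06). Of 11 genes of pyruvate entry into mitochondria, 5 rose and 2 fell. The kinase gene PDK3 fell by 2.63 ± 0.0657, with 1.71 ± 0.0185 FPKM in H1975 OR and 15.8 ± 0.922 FPKM in H1975 (adjusted p = 3.4e-12), and so moved the same way as PDK1. PDK2, a related kinase gene, rose by 0.77 ± 0.0759, with 8.61 ± 0.944 FPKM in H1975 OR and 4.62 ± 0.0949 FPKM in H1975 (adjusted p = 1.1e-06). PDHX, a structural subunit of the pyruvate dehydrogenase complex, rose by 0.64 ± 0.0598 (adjusted p = 6.8e-07).

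Of 5 tested genes of the HIF machinery, 3 rose. VHL, which targets hydroxylated HIF subunits for destruction, rose by 0.55 ± 0.0694 (adjusted p = 1.2e-05), and CITED2, a negative regulator of HIF-dependent transcription, rose by 1.34 ± 0.0641 (adjusted p = 1.2e-09). The 25 other HIF targets had a median of -0.26, with 9 higher and 13 lower. LOX, the collagen cross-linking enzyme lysyl oxidase, was at 36.1, 40.8 and 43.1 FPKM in H1975 OR and at 3.32, 2.81 and 6.40 FPKM in H1975, and rose by 3.04 ± 0.286 (adjusted p = 0.00040). TMEM45A rose by 2.56 ± 0.0874 (adjusted p = 6.3e-11). PLIN2, a coat protein of lipid droplets, fell by 1.95 ± 0.0828, with 25.7 ± 3.26 FPKM in H1975 OR and 101 ± 2.83 FPKM in H1975 (adjusted p = 5.0e-10). The vesicle GTPase gene RAB20 was at 0.482, 0.592 and 0.789 FPKM in H1975 OR and at 8.19, 8.09 and 7.90 FPKM in H1975, and reached the level for testing through H1975 alone.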

How the data were processed

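RNA-seq libraries of 3 H1975 OR and 3 H1975 cultures were grouped by the sample titles. The values the authors deposited are FPKM in a series table with 1 column per library. Library files add, per the file headers, mean coverage, FPKM and TPM with coordinates. Per the submitters' processing notes the build was GRCh37 and DESeq was named, without version or role. The aligner, quantifier, annotation and strand setting were not given in the sources used. Read counts were not used, so limma 3.58.1 (R 4.3.3) with trend and robust moderation was run on log2(FPKM + 1), two-sided, for genes that averaged 1 FPKM or more in at least 1 group, with Benjamini-Hochberg adjustment over all of them. The scale understates changes of low genes. Depth in reads is unknown, and no counting interval is given. Mapped bases were estimated from the most frequent ratio of coverage to FPKM over genes, which 10.8% to 11.6% of genes shared. The median ratio over genes was lower, at 4.88 to 5.78 gigabases in H1975 OR and 5.43 to 7.37 gigabases in H1975. Adjusted p-values are limma's. The code was tested on simulated data. P-values measure the spread among these libraries. All 35 members were named, and of the 68 further genes up to 2 rises and 2 falls per sublist with at least 5 FPKM in the higher group, of which 1 is not reported here. Members, lists and role groups were chosen with earlier results of these data known. Promoter windows are from RefSeq, GRCh38.p14. TIGAR and ERO1A were matched under older symbols by gene ID, and PECAM1 was not analysed here.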

Additional observations from a re-analysis of the deposited data

Results flagged for a closer look

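Rows of the library files that lie outside the series table were searched for genes overlapping a member. The antisense transcript HIF1A-AS2, which overlaps HIF1A on the other strand, was picked out from rows that were higher in every H1975 OR library than in any H1975 library. The same held for 40.8% of all tested genes. HIF1A-AS2 was at 9.91, 7.35 and 8.10 FPKM in H1975 OR and at 0.977, 1.40 and 1.27 FPKM in H1975, with means of 8.45 ± 1.32 and 1.22 ± 0.219 (SD, n = 3 each), a ratio of 6.95. HIF1A itself was lower in mean and overlapped between the groups. The antisense row RP11-59N23.3, which overlaps LDHB, was picked out in the same way, at 2.64, 3.19 and 3.56 FPKM in H1975 OR, a mean of 3.13, and at 1.97, 2.05 and 1.96 FPKM in H1975. Without a stated strand setting these reads cannot be told from those of the overlapping gene, and no test was run on these rows. HIF1A-AS1 and SDAD1P1 were also higher in every H1975 OR library, at lower levels, and were not picked out. AC093818.1, RP5-940J5.9, RP11-259N19.1, ENO1-IT1 and AC084117.3 were lower in every H1975 OR library than in any H1975 library.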

How the results depend on the processing

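The number of genes past an FDR of 0.05, the counts of members higher and lower, and the medians of the enzymes and of the HIF targets kept their direction, the counts within 1.5 times and the medians within 1 SD over the H1975 OR libraries, under each of these alternatives: another pseudocount, filters, TPM, other scalings, limma without trend, a replicate block, each library left out, and regulatory or EGLN genes counted in. With each library left out, between 8985 and 9261 genes passed, and with the replicate block 9422 passed and LDHB was lost (adjusted p = 0.066) while P4HA2 passed (adjusted p = 0.015). Over all tested genes, the deviations of same-numbered libraries from their group means had correlations of -0.14, 0.08 and 0.10. H1975 OR replicates 2 and 3 correlated best with their own number, and H1975 OR replicate 1 did not. Whether the libraries were paired is thus not settled by these values. The median of all tested genes lay between -0.01 and 0.08. Of 30 called members, 28 kept call and direction wherever they were tested, and LDHB and NDRG1 did not. HK2, which did not pass, changed sign to 9.7e-05 when FPKM were scaled without mitochondrially encoded genes, where LDHB missed the threshold (adjusted p = 0.13). The filter on both groups left out CA9. The counts of the wider list and its named genes were checked in the same way, chosen after the data were seen, and in 222 of 222 refits the named genes kept their call. Without 1 library the median of the HIF targets ranged from -0.19 to -0.03. The neighbour medians moved by more than a typical SE in 32 and changed sign in 12 of 70 comparisons with windows of 2 or 10 Mb, and the cause was not tested. The aldolase shares moved by more than their spread without H1975 OR replicate 3. Low genes such as CA9 and ANKRD37 are limited by depth, which is unknown in reads.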

Other observations

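The library with the highest value was counted for each list, a description made after the values were seen and not tested. Among H1975 OR libraries, replicate 3 was the highest for 8 of the 10 non-metabolic HIF targets, for 4 of the 4 oxygen-sensing genes and for 18 of the 25 other HIF targets, against 41.1% of all tested genes. Among H1975 libraries, replicate 3 was the highest for 6 of the 10 non-metabolic HIF targets and for 17 of the 25 other HIF targets, against 22.0% of all tested genes, and for 1 of the 17 glycolytic enzymes and 0 of the 4 oxygen-sensing genes. Without H1975 replicate 3, the fold change was 2.48 for ADM, 0.65 for NDRG1 and 3.33 for LOX. These 3 rises were 2.27, 0.52 and 3.04 with all libraries. Other HIF targets did not all shift in this way. VEGFA was at 1.13 both with all libraries and without H1975 replicate 3. P4HA2 was at -0.20 with all libraries and -0.09 without H1975 replicate 3, and CA12 was at -0.21 and -0.28.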
